A study of Mus musculus with 12 samples.

Results

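Genes of the hypoxia response and of glycolysis were followed in embryonic mouse lungs that lacked the kinases MEK1 and MEK2 in mesenchyme. The set was given as 40 gene symbols, 15 for glycolytic enzymes and 25 for other targets or regulators of the hypoxia-inducible factors, and was matched by symbol to the annotation of the array's probes. Of the 40 genes, 36 had a probe and 30 were measured well enough to be tested, 13 enzymes and 17 others, among 8311 genes tested in all. The members were covered by 62 probes, of which 45 passed the filter on dim probes. Of the 30 tested members, 2 (6.67%) rose in double mutants against controls, the growth inhibitor Ddit4 and the lipoprotein receptor Vldlr. Of all genes, 1.9% rose in that comparison. In the main processing 0 of the 13 enzymes passed the threshold in any comparison, while Pfkl, Tpi1, Ldha and Aldoc passed under some alternatives. The lipase inhibitor Angptl4 fell in double mutants against lungs with 1 Mek1 allele, where Vldlr again rose. In that comparison 0.541% of all genes passed, and each of these 2 calls was kept in only 10 of 25 alternatives.

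Messenger RNA of whole E15.5 lungs was hybridised to Illumina bead arrays, 1 array per specimen, with 4 specimens in each of 3 genotypes. Double mutants were Mek1flox/flox;Mek2-/-;Dermo1+/Cre, lungs with 1 Mek1 allele were Mek1+/flox;Mek2-/-;Dermo1+/Cre, and controls were Dermo1+/Cre. All 12 specimens shared the 129/Sv background and carried Dermo1-Cre, a recombinase made from the Twist2 locus in embryonic mesenchyme, so the driver was present in controls too. Mek2 was inactivated in every cell of both mutant genotypes, while floxed Mek1 could be lost only where the driver was active. Epithelium, blood and other cells without the driver kept Mek1 and contributed to the RNA. In such bulk RNA, fewer cells of a type and less RNA per cell cannot be told apart. Whether a specimen was 1 lung or a pool is not stated, so p-values measure the spread between these specimens.

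Cells sense oxygen through hypoxia-inducible factors, or HIFs. In ample oxygen the prolyl hydroxylases encoded by Egln genes mark the HIF alpha subunits, HIF-1α from Hif1a and HIF-2α from Epas1, for destruction through the VHL protein. When oxygen is short the alpha subunit is kept, pairs with ARNT and raises genes for glucose uptake, glycolysis, vessel growth and mitochondrial turnover. Control of HIF-1α is mainly at the protein level, which an RNA array does not report. In the embryonic lung, Vegfa guides growth of the vessel bed, and MEK1 and MEK2 are the kinases that activate ERK.

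HIF pairs bind DNA at a short core word, ACGTG or GCGTG. The 250 bases before the annotated start site were read for 34 members from RefSeq windows of GRCm38.p6, and both words were searched on both strands. At least 1 of the words was found for 31 of these 34 members, in 39 of their 52 windows (75%), against 38.6% of all 32851 windows. ACGTG was in 46.2% of the members' windows and in 16.6% of all, GCGTG in 50% and in 28.2%. The longer word CACGTG, which holds ACGTG on both strands, was in 7.69% and in 6.02%. All windows were not matched to the members' windows in base composition, and the difference in shares was not tested. The set was itself given as glycolytic enzymes and other targets or regulators of these factors. The windows below are those of Ddit4 and Vldlr, the members that rose, and of the lactate dehydrogenase gene Ldha, the tested enzyme with the most words in 1 window. They are written 5′ to 3′ on the gene's strand and end just before the start site, and capitals mark ACGTG or GCGTG on either strand, so that CACGT and CACGC are these words read on the opposite strand.
Ddit4, chr10:59951771-59952020, minus strand: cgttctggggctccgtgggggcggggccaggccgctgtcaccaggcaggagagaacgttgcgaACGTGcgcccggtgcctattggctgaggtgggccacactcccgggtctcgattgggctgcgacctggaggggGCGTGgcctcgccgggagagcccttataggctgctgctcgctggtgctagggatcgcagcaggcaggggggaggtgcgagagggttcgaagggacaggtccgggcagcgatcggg
Vldlr, chr19:27216770-27217019, plus strand: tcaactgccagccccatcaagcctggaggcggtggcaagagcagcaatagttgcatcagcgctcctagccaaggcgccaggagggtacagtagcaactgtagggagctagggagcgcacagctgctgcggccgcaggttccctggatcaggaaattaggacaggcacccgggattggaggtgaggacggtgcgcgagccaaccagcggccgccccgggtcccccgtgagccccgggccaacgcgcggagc
Ldha, chr7:46845554-46845803, plus strand: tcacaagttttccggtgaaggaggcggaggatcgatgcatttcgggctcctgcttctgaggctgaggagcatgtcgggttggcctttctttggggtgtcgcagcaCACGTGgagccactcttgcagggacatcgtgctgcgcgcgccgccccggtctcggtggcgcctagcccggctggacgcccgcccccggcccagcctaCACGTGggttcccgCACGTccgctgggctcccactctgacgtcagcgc
In the Ddit4 window ACGTG starts at -187 and GCGTG at -115, counted from the start site. The Vldlr window printed here and a second one at chr19:27216234-27216483 hold neither word. The Ldha window holds 5 matches of ACGTG, 4 of them as 2 copies of CACGTG. A match is a description of the letters and not a binding site, and a missing word says nothing of HIF binding elsewhere.

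Values are log2 intensities after background correction and quantile normalization, given per array or as mean ± SD (n = 4 arrays per genotype). Changes are differences on the log2 scale ± SE from 1 limma fit of the 3 genotypes, and a gene was called past the threshold at a Benjamini-Hochberg adjusted p under 0.05 over all 8311 genes. The 3 comparisons share arrays with each other. The number of probes above background ran from 10467 to 11878 per array, and raw upper quartiles ran from 226.6 to 390.1, control replicates 2 and 3 being the brightest at 390.1 and 388.3. Map2k2, the gene of MEK2, fell by 0.74 ± 0.12 in double mutants and by 1.02 ± 0.12 with 1 Mek1 allele against controls (limma adjusted p = 0.00791 and 0.00209). Where the Map2k2 probe lies relative to the deleted part of the gene is not known here, so its remaining signal does not measure residual MEK2 transcript. The Map2k1 probe was not above background, and the deletion of Mek1 could not be checked.

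Against controls, 2 of the 30 tested members (6.67%) passed the threshold in double mutants, both higher, and the background over all genes was 3.02%, with 1.9% higher and 1.12% lower. Changes above 0 were found in 25 of 30 members (83.3%), in 12 of 13 enzymes and in 13 of 17 others, against 49.3% of all genes. Among these enzymes, Hk2, Pfkp, Pfkm and Gapdh changed by only 0.01 to 0.04, within their SE. Without control replicate 2, 9 enzymes and 12 others were above 0, as without both brightest control arrays. The median change was 0.298 over the tested enzymes and 0.217 over the tested others, against -0.004 over all genes. Without background correction these medians were 0.124 for enzymes and 0.173 for others, and with the authors' deposited log2 values 0.12 and 0.174, so the order of the groups turned. At unadjusted p under 0.05, 6 enzymes and 6 others were higher in double mutants, where 9.99% of all genes were, and 1 was lower, where 8.7% were. The 4 double mutant values lay wholly beyond the 4 control values in 6 members (20%), against 13.7% of all genes (7.42% above and 6.28% below): Aldoc, P4ha2, Vegfa, Ddit4 and Vldlr above, and Angptl4 below. The enzyme median rested partly on 2 arrays, being 0.179 without double mutant replicate 2 and 0.181 without control replicate 3, and with both brightest control arrays left out 0 members passed.

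Against lungs with 1 Mek1 allele, double mutants again had 2 of 30 members past the threshold, Vldlr higher and Angptl4 lower, where the background was 0.541%, with 0.409% higher and 0.132% lower. The change was above 0 in 24 of 30 members (80%), 10 enzymes and 14 others, against 51.8% of all genes. The medians were 0.22 for enzymes and 0.251 for others, against 0.008 for all genes, and the enzyme median was 0.132 without double mutant replicate 2. At unadjusted p under 0.05, 5 enzymes and 9 others were higher, against 7.47% of all genes, and 1 was lower, against 4.05%. Without overlap between the groups were 9 members (30%), against 6.34% of all genes (4.2% above and 2.14% below): Pfkl, Aldoc, Pgam1, Slc2a3, Pdk1, Vegfa, Ddit4 and Vldlr higher, and Angptl4 lower. Leaving out 1 array took the count to 0 for replicates 1, 2 and 4 of the double mutants, 1 and 4 of the 1 Mek1 allele lungs, and 2 and 3 of the controls. It took the count to 1 for replicate 3 of the double mutants and for replicates 2 and 3 of the 1 Mek1 allele lungs. Without replicate 3 of the double mutants, Vldlr and Angptl4 were lost and the 1 member was Ddit4 (0.66, limma adjusted p = 0.0474).

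Lungs with 1 Mek1 allele had 0 of 30 members past the threshold against controls in limma, where the background was 0.638%, with 0.301% higher and 0.337% lower. At unadjusted p under 0.05 they had 2 higher, against 7.03% of all genes, and 3 lower, against 9.39%. Changes above 0 were found in 13 of 30 members (43.3%), against 47.9% of all genes. The medians were 0.011 for enzymes and -0.037 for others, against -0.01 for all genes. Neither median kept its sign under every omission of 1 array, with ranges of -0.034 to 0.029 for enzymes and -0.128 to 0.01 for others. P4ha2 and Ddit4 lay wholly above controls, and Slc2a3, Hif1a and Bnip3l wholly below (5 members, 16.7%, against 9.91% of all genes, 4.24% above and 5.68% below). Across the 3 genotypes, the double mutant mean was the highest in 22 of 30 members (73.3%), against 32.8% of all genes, and the 1 Mek1 allele mean was the lowest in 15 (50%), against 33.1% of all genes.

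**Figure D1:**
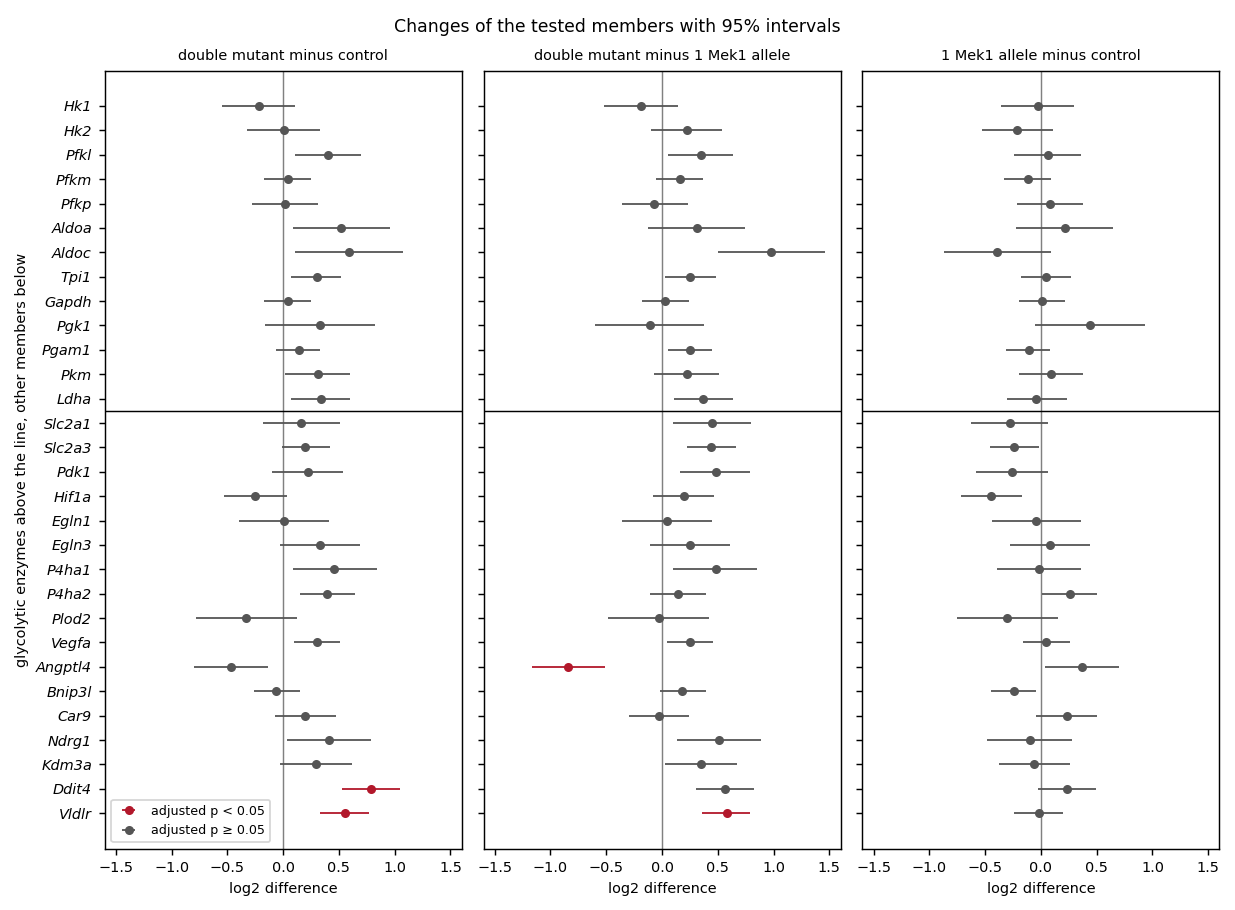
Log2 differences of the 30 tested members with 95% intervals, glycolytic enzymes above the horizontal line and other members below it, in panels for double mutant minus control, double mutant minus 1 Mek1 allele and 1 Mek1 allele minus control. Red points passed an adjusted p under 0.05: Ddit4 (0.79) and Vldlr (0.55) in the left panel, Angptl4 (-0.84) and Vldlr (0.58) in the middle panel, and none in the right panel.

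Among glycolytic enzymes, glucose enters the pathway through the hexokinases. Hk2, the inducible hexokinase, averaged 10.79 ± 0.21 in double mutants, 10.57 ± 0.25 with 1 Mek1 allele and 10.79 ± 0.21 in controls, a change of 0.01 ± 0.15 between double mutants and controls. Hk1 was near background, above it on 2 double mutant, 3 1 Mek1 allele and 3 control arrays, and was the only tested enzyme below controls, at -0.22 ± 0.15. Neither hexokinase passed the threshold in any comparison.

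Phosphofructokinase, the committed step, is encoded by 3 genes, all of them tested. Pfkl, the liver-type subunit, measured 12.1, 12.51, 12.13 and 12.24 in double mutants, 11.74, 12.04, 11.97 and 11.84 with 1 Mek1 allele, and 11.74, 11.53, 12.13 and 11.98 in controls. Its double mutant values exceeded all those with 1 Mek1 allele and overlapped the highest control value. The change was 0.40 ± 0.14 against controls and 0.35 ± 0.14 against 1 Mek1 allele, short of the threshold (limma adjusted p = 0.144 and 0.356). The muscle-type Pfkm and platelet-type Pfkp changed by 0.04 ± 0.10 and 0.02 ± 0.14 against controls.

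The aldolases split fructose bisphosphate, and both had their highest mean in double mutants. Aldoc, the form best known from brain, measured 6.87, 6.1, 6.3 and 6.26 in double mutants, 4.94, 5.86, 4.97 and 5.83 with 1 Mek1 allele, and 5.88, 5.6, 5.81 and 5.87 in controls. All double mutant values were above all others, and the 1 Mek1 allele values lay in a low and a high pair. Only the 2 higher of them were above background. The change was 0.59 ± 0.22 against controls (limma adjusted p = 0.177) and 0.98 ± 0.22 against 1 Mek1 allele (limma adjusted p = 0.072), and the second of these was 0.39 without background correction. Aldoa, the main form of most tissues, averaged 11.07 ± 0.40 in double mutants, 10.76 ± 0.23 with 1 Mek1 allele and 10.55 ± 0.32 in controls, a change of 0.52 ± 0.20 against controls (limma adjusted p = 0.188). Double mutant replicate 2, at 11.65, was well above the other double mutant arrays, at 10.78 to 11.04.

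In the lower part of the pathway the changes were mostly positive and small. Triose phosphate isomerase, Tpi1, changed by 0.30 ± 0.10 between double mutants and controls (limma adjusted p = 0.149). Gapdh, often used as a constant control gene, averaged 14.25 ± 0.10 in double mutants, 14.22 ± 0.10 with 1 Mek1 allele and 14.21 ± 0.12 in controls, with an interval for the change against controls of -0.17 to 0.25. The X-linked phosphoglycerate kinase gene Pgk1 was dim, above background on 3 double mutant, 3 1 Mek1 allele and 1 control arrays, and its changes of 0.33 ± 0.23 against controls and -0.11 ± 0.23 against 1 Mek1 allele have little precision. Phosphoglycerate mutase, Pgam1, lay wholly above the 1 Mek1 allele arrays (0.25 ± 0.09, limma adjusted p = 0.306). Pyruvate kinase, Pkm, averaged 12.10 ± 0.30 in double mutants, 11.88 ± 0.14 with 1 Mek1 allele and 11.79 ± 0.10 in controls, a change of 0.31 ± 0.14 against controls (limma adjusted p = 0.239).

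Ldha, which turns pyruvate into lactate and is a textbook HIF target, measured 13.45, 13.7, 13.09 and 13.48 in double mutants, 13.12, 13.03, 13.06 and 13.01 with 1 Mek1 allele, and 12.89, 13.1, 13.15 and 13.21 in controls. The double mutant arrays other than replicate 3 were above every array of both other genotypes, and replicate 3 lay among them. The change was 0.34 ± 0.12 against controls (1.26-fold, limma adjusted p = 0.167), 0.37 ± 0.12 against 1 Mek1 allele (limma adjusted p = 0.257) and -0.04 ± 0.12 with 1 Mek1 allele against controls. The enzymes Gpi1 and Eno1 had no probe under these symbols, and the near-identical copy Eno1b on the array was not counted for Eno1.

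**Figure D2:**
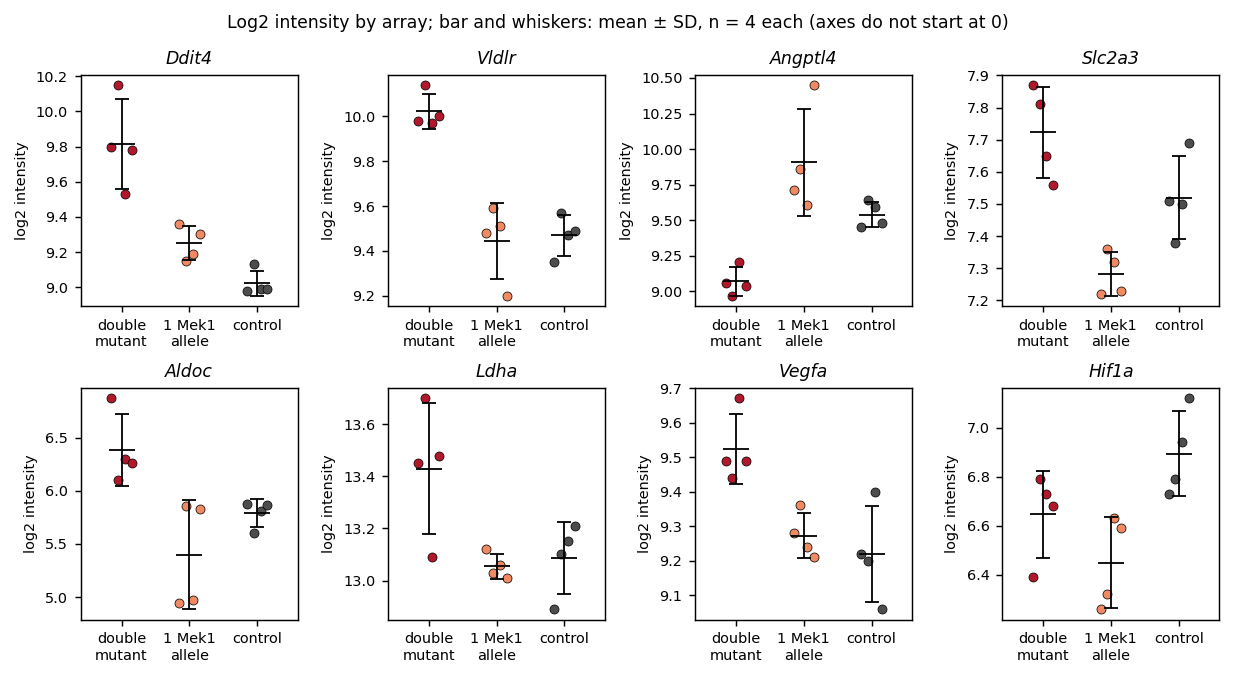
Log2 intensity of 8 members on each array, with double mutants, 1 Mek1 allele and controls from left to right, where bars and whiskers are mean ± SD of 4 arrays and the axes do not start at 0. Ddit4 and Vldlr are above both other genotypes on every double mutant array, Angptl4 is below both on every double mutant array, and Slc2a3 and Aldoc have their lowest mean with 1 Mek1 allele.

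The 3 tested genes of glucose transport and of the pyruvate switch had their larger differences between double mutants and lungs with 1 Mek1 allele, none past the threshold. Slc2a3, the high-affinity glucose transporter GLUT3, measured 7.87, 7.81, 7.65 and 7.56 in double mutants, 7.22, 7.36, 7.32 and 7.23 with 1 Mek1 allele, and 7.51, 7.38, 7.5 and 7.69 in controls. The 1 Mek1 allele values were below all others, and double mutants overlapped controls. The change was 0.44 ± 0.10 in double mutants against 1 Mek1 allele (limma adjusted p = 0.072), 0.20 ± 0.10 against controls (limma adjusted p = 0.298), and -0.24 ± 0.10 with 1 Mek1 allele against controls (limma adjusted p = 0.259).

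Pdk1, the kinase that turns off pyruvate dehydrogenase, measured 8.55, 8.89, 8.45 and 8.66 in double mutants, 7.83, 8.29, 8.16 and 8.37 with 1 Mek1 allele, and 8.52, 8.23, 8.7 and 8.22 in controls. Controls lay in a low and a high pair that spanned the gap between the mutant genotypes. The change was 0.48 ± 0.15 against 1 Mek1 allele (limma adjusted p = 0.219) and 0.22 ± 0.15 against controls (limma adjusted p = 0.47). Slc2a1, the widespread transporter GLUT1, followed the same order of means, 10.85 ± 0.24 in double mutants, 10.40 ± 0.24 with 1 Mek1 allele and 10.69 ± 0.26 in controls, and its change of 0.45 ± 0.16 against 1 Mek1 allele did not pass (limma adjusted p = 0.303). The lactate exporter Slc16a3 was not well above background on enough arrays to be tested.

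The HIF factors and hydroxylases showed no gene past the threshold. Hif1a measured 6.39, 6.79, 6.73 and 6.68 in double mutants, 6.26, 6.32, 6.63 and 6.59 with 1 Mek1 allele, and 6.73, 6.79, 6.94 and 7.12 in controls. All 1 Mek1 allele values were below all controls, and the double mutant values overlapped both other genotypes. The change was -0.25 ± 0.13 in double mutants against controls (limma adjusted p = 0.313) and -0.45 ± 0.13 with 1 Mek1 allele against controls (limma adjusted p = 0.116). Egln3, a hydroxylase that is itself induced by HIF, averaged 8.40 ± 0.27 in double mutants, 8.16 ± 0.16 with 1 Mek1 allele and 8.07 ± 0.31 in controls, a change of 0.33 ± 0.17 against controls (limma adjusted p = 0.306). Egln1, the main oxygen sensor, changed by 0.01 ± 0.19. Epas1 was not tested: of its 3 probes, 1 was above background on 2 double mutant arrays and the others on 0 of 12.

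Collagen-modifying enzymes of the set had changes of both signs, none past the threshold. P4ha2, a prolyl hydroxylase of collagen, measured 7.78, 7.76, 7.45 and 7.92 in double mutants, 7.76, 7.66, 7.48 and 7.46 with 1 Mek1 allele, and 7.19, 7.4, 7.33 and 7.4 in controls. Every array of both mutant genotypes was above every control. The change was 0.39 ± 0.11 in double mutants (limma adjusted p = 0.0875) and 0.26 ± 0.11 with 1 Mek1 allele (limma adjusted p = 0.286), both against controls. Its partner P4ha1 changed by 0.46 ± 0.17 against controls and 0.48 ± 0.17 against 1 Mek1 allele (limma adjusted p = 0.179 and 0.305), with double mutant replicate 4, at 6.35, below the range of 6.9 to 7.23 of the other double mutants. The lysyl hydroxylase Plod2 changed by -0.33 ± 0.21 against controls (limma adjusted p = 0.43), where double mutant replicate 1, at 7.23, was far below the other double mutants at 8.18 to 8.42. The folding oxidase gene Ero1a had no probe.

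The 2 tested secreted factors had changes of opposite sign in double mutants. Vegfa, the vessel growth factor, measured 9.49, 9.44, 9.67 and 9.49 in double mutants, 9.28, 9.36, 9.24 and 9.21 with 1 Mek1 allele, and 9.22, 9.2, 9.4 and 9.06 in controls. All double mutant values were above all others. The change was 0.30 ± 0.10 against controls (1.23-fold, limma adjusted p = 0.115) and 0.25 ± 0.10 against 1 Mek1 allele (limma adjusted p = 0.337), so neither difference passed.

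Angptl4, a secreted inhibitor of lipoprotein lipase that fasting and hypoxia induce, measured 9.06, 8.97, 9.21 and 9.04 in double mutants, 9.71, 9.86, 9.61 and 10.45 with 1 Mek1 allele, and 9.45, 9.64, 9.59 and 9.48 in controls. Every double mutant array was below every array of both other genotypes, and 1 Mek1 allele replicate 4 stood above the rest. Angptl4 fell by 0.84 ± 0.15 on the log2 scale in double mutants against 1 Mek1 allele (limma adjusted p = 0.0346), and differed from controls by -0.47 ± 0.15 without passing (limma adjusted p = 0.122). With 1 Mek1 allele it differed from controls by 0.37 ± 0.15 (limma adjusted p = 0.252). Without 1 Mek1 allele replicate 4 the change between the mutant genotypes was -0.66 (limma adjusted p = 0.0548). The call between the mutant genotypes was kept in 3 of the 12 omissions of 1 array, where the limma adjusted p ran from 0.0366 to 0.108. The difference from controls passed in 4 of 25 alternatives, among them the omission of 1 Mek1 allele replicate 4 (-0.47, limma adjusted p = 0.0213). Adrenomedullin, Adm, had no probe above background.

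Ddit4, also called Redd1, restrains the growth kinase mTORC1 under hypoxia and other stress. It measured 9.8, 10.15, 9.53 and 9.78 in double mutants, 9.36, 9.15, 9.19 and 9.3 with 1 Mek1 allele, and 8.98, 9.13, 8.99 and 8.99 in controls. The 3 genotypes did not overlap and stood in the order double mutant, 1 Mek1 allele, control. Ddit4 rose by 0.79 ± 0.12 in double mutants against controls (1.73-fold, limma adjusted p = 0.00579). Its changes of 0.56 ± 0.12 in double mutants against 1 Mek1 allele and 0.23 ± 0.12 with 1 Mek1 allele against controls did not pass (limma adjusted p = 0.0616 and 0.365). The first of these passed in 6 of 25 alternatives, among them no background correction (0.5, limma adjusted p = 0.0131). The rise against controls was called in all 12 omissions of 1 array, at 0.68 to 0.89, and was lost with both brightest control arrays left out (0.83, limma adjusted p = 0.0595).

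Vldlr, the very low density lipoprotein receptor, which takes up lipid and is induced by hypoxia, measured 9.98, 10.14, 9.97 and 10 in double mutants, 9.48, 9.59, 9.51 and 9.2 with 1 Mek1 allele, and 9.35, 9.57, 9.47 and 9.49 in controls. Double mutants were above all other arrays, and the other genotypes overlapped. Vldlr rose by 0.55 ± 0.10 in double mutants against controls (1.47-fold, limma adjusted p = 0.0116) and by 0.58 ± 0.10 against 1 Mek1 allele (1.49-fold, limma adjusted p = 0.0335), and changed by -0.02 ± 0.10 with 1 Mek1 allele against controls. The call against controls held in all 12 omissions and was lost with both brightest control arrays left out (0.60, limma adjusted p = 0.108). The call against 1 Mek1 allele held in 3 of 12 omissions, at adjusted p of 0.0311 to 0.101 in limma.

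Ndrg1, Kdm3a and Car9 lay above controls in double mutants without passing. The stress-response gene Ndrg1 changed by 0.41 ± 0.18 against controls and 0.51 ± 0.18 against 1 Mek1 allele (limma adjusted p = 0.235 and 0.281). Kdm3a, a histone H3 lysine demethylase, changed by 0.29 ± 0.15 and 0.35 ± 0.15 in the same comparisons. The carbonic anhydrase gene Car9 averaged 6.18 ± 0.11 in double mutants, 6.21 ± 0.21 with 1 Mek1 allele and 5.98 ± 0.19 in controls. The mitophagy receptor Bnip3l was not above controls in double mutants and averaged 11.07 ± 0.03 in double mutants, 10.89 ± 0.16 with 1 Mek1 allele and 11.13 ± 0.08 in controls, the 1 Mek1 allele arrays lying below all controls (-0.24 ± 0.09, limma adjusted p = 0.231). Bnip3, Higd1a and Mxi1 had no probe that passed the filter, and Ankrd37 had no probe.

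**Figure D3:**
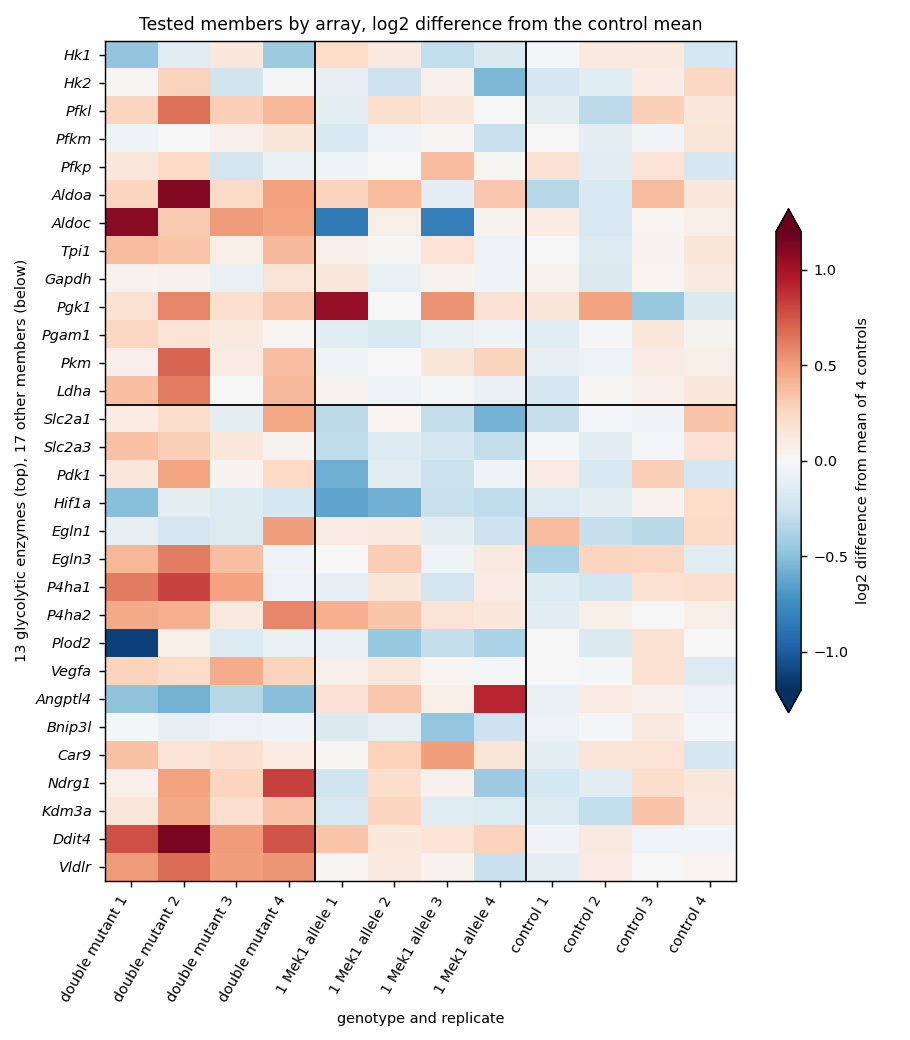
Heat map of the 30 tested members (enzymes above the horizontal line, others below) on 12 arrays, with double mutants on the left, 1 Mek1 allele in the middle and controls on the right. Colour is the log2 difference from the mean of the 4 controls, red for higher: Ddit4 and Vldlr are red on all 4 double mutant arrays, Angptl4 is blue on all 4, and double mutant replicate 2 is the reddest array for many enzymes.

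The double mutant arrays were not equal. Relative to the control mean, the median of the 13 enzymes was 0.19, 0.31, 0.1 and 0.32 on double mutant replicates 1 to 4, -0.04, 0, 0.04 and -0.04 with 1 Mek1 allele, and -0.02, -0.13, 0.09 and 0.11 in controls. For the 17 other members it was 0.14, 0.29, 0.13 and 0.24 in double mutants, -0.08, 0.13, -0.11 and -0.17 with 1 Mek1 allele, and -0.12, -0.02, 0.11 and 0.02 in controls. For enzymes, double mutant replicate 3 lay below the highest control, while the other double mutant arrays were above all controls. Double mutant replicate 2 was the highest of the 4 double mutant arrays in 7 of 13 enzymes and 8 of 17 others, against 22.1% of all genes.

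**Figure D4:**
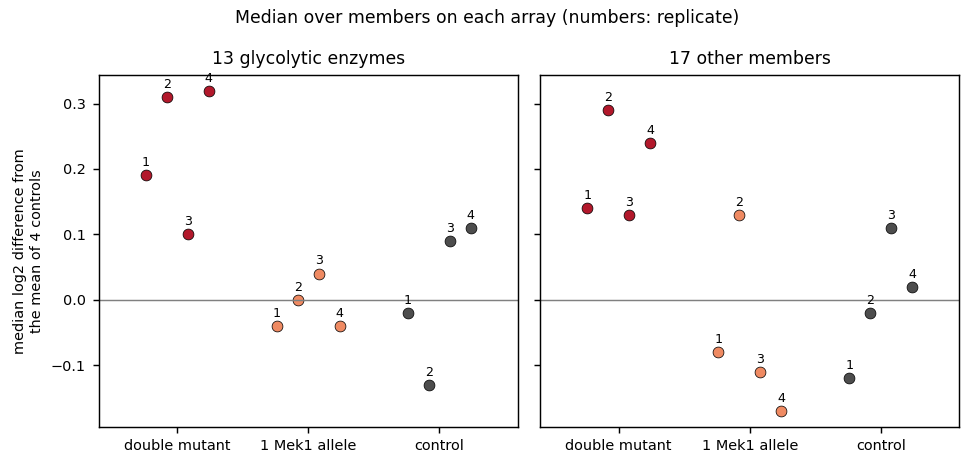
Median log2 difference from the control mean on each array, over 13 glycolytic enzymes on the left and 17 other members on the right, with double mutants, 1 Mek1 allele and controls in order and the replicate number beside each point. Enzyme medians are 0.1 to 0.32 in double mutants, -0.04 to 0.04 with 1 Mek1 allele and -0.13 to 0.11 in controls.

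Of the tested members, 10 had several probes past the filter, which gives a second reading of the same RNA. The other Vldlr probes gave 0.48 and 0.42 in double mutants against controls and 0.44 and 0.45 against 1 Mek1 allele, in the direction of the chosen probe. The second Pfkl probe, dim on most arrays, gave 0.18 against controls where the chosen probe gave 0.40, and the Pfkm probes gave 0.04, -0.01 and 0.14. The second Vegfa probe gave 0.37 against controls, the other Tpi1 probes 0.22 and 0.21, the other Kdm3a probes 0.24 and 0.35, and the second Ndrg1 probe, dim on some arrays, 0.57. The Pfkp probes disagreed: the brighter changed by 0.02 and a dimmer by -0.52 against controls, and by -0.07 and -0.53 against 1 Mek1 allele, with adjusted p over probes of 0.117 and 0.231 in limma for the dimmer. The Egln1 probes gave 0.01, 0.14 and 0.14, and the Gapdh probes 0.04 and 0.05. Ddit4, Angptl4, Ldha and Aldoc rest on 1 probe each.

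**Figure D5:**
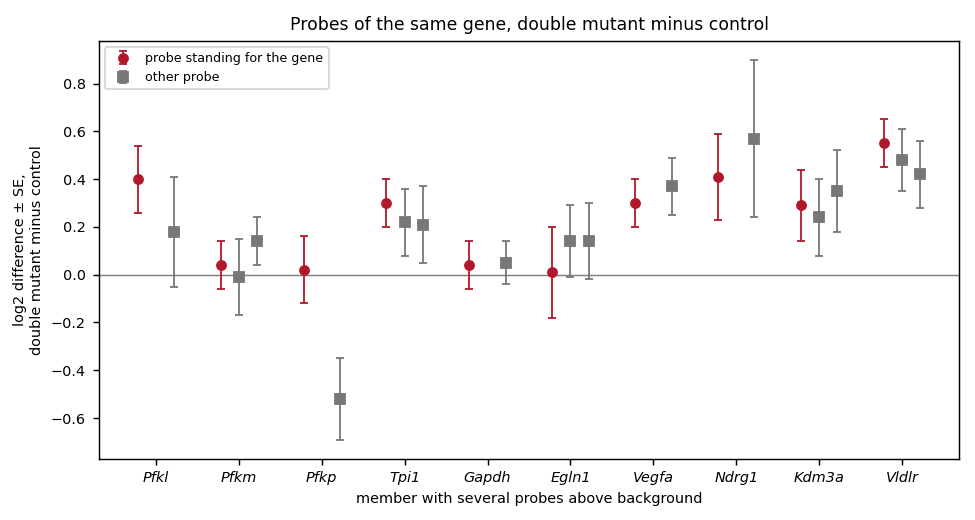
Log2 difference, double mutant minus control, ± SE for each probe of the 10 members with several probes past the filter, circles for the probe that stands for the gene and squares for the others. The 3 Vldlr probes lie at 0.42 to 0.55, while the Pfkp probes lie apart at 0.02 and -0.52.

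Genes around the set were read from further lists. Of 35 other genes of glycolysis and pyruvate use, 19 were measured, 3 rose and 1 fell in double mutants against controls, where 1.9% of all genes rose and 1.12% fell, with a median of 0.023. The enolase Eno2, best known from neurons and also a HIF target, rose by 1.22 ± 0.18 (2.32-fold, limma adjusted p = 0.00406), averaging 7.63 ± 0.41 in double mutants, 7.21 ± 0.24 with 1 Mek1 allele and 6.41 ± 0.08 in controls. With 1 Mek1 allele it was 0.80 above controls (limma adjusted p = 0.0592). The glucose transporter gene Slc2a10 rose by 0.79 ± 0.19 and the phosphoglucomutase gene Pgm1, which links glycolysis to glycogen, by 0.89 ± 0.22, while Pdp1, the phosphatase that turns pyruvate dehydrogenase on, fell by 0.46 ± 0.11 (limma adjusted p = 0.0377, 0.0494 and 0.0433).

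Of 43 other hypoxia-inducible genes, 34 were measured and 0 passed against controls in limma, with a median of 0.066. At unadjusted p under 0.05, 5 were higher and 3 lower, where 9.99% of all genes were higher and 8.7% lower. The same shares of all genes apply to the lists that follow against controls. Closest were the VEGF receptor gene Flt1 at 0.55 and Wsb1 at -0.33 (limma adjusted p = 0.0543 and 0.0557). Of 14 other HIF regulators, 10 were measured and 0 passed, with a median of -0.07 and 0 higher and 1 lower at unadjusted p under 0.05, Eloc, a subunit of the VHL ligase, being at -0.29. The pentose phosphate list, with 5 of 9 measured, had a median of 0.148, and the citric acid cycle list, with 17 of 21 measured, -0.147, and 0 genes of either passed in limma, with 2 pentose phosphate genes higher and 2 citric acid cycle genes lower at unadjusted p under 0.05. In double mutants against 1 Mek1 allele, 0 genes of these 5 lists passed in limma. At unadjusted p under 0.05, 10 were higher and 2 lower, where 7.47% of all genes were higher and 4.05% lower. Bhlhe40, a HIF-induced repressor, was at 0.84 in that comparison (limma adjusted p = 0.0698).

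Markers of cell types moved with genotype beside these genes. Summed intensities of 4 measured airway secretory markers of 6 were 748 to 1120 in double mutants, 393 to 524 with 1 Mek1 allele and 308 to 532 in controls, and the club cell gene Scgb1a1 was not above background. Those of 7 measured ciliated markers of 8 were 1170 to 2030 in double mutants, 658 to 1040 with 1 Mek1 allele and 697 to 957 in controls. Of these markers, 2 secretory and 4 ciliated genes rose in double mutants against controls, as did 2 endothelial, 2 mesothelial, 1 macrophage and 1 distal epithelial marker, where 1.9% of all genes rose. Red cell markers, 6 measured of 10, were 40900 to 48400 in double mutants, 42200 to 45800 with 1 Mek1 allele and 35300 to 43900 in controls, although the anion exchanger gene Slc4a1 fell by 1.03 ± 0.19 in double mutants against controls and by 0.99 ± 0.19 against 1 Mek1 allele (limma adjusted p = 0.0127 and 0.0398). Summed intensities of 5 measured mesothelial markers of 6 were 1140 to 1340, 762 to 1040 and 801 to 1030 in the same order, those of 5 measured macrophage markers of 8 were 1110 to 1900, 984 to 1500 and 1100 to 1230, and those of 6 measured endothelial markers of 8 were 3970 to 4640, 4380 to 4540 and 4370 to 4840. Lung identity genes were present, with 10 of 12 distal epithelial and 7 of 8 mesenchymal markers measured, and 0 of 6 liver and plasma markers. Muscle markers were also present, 4 cardiac of 7 and 3 skeletal of 8. Cardiac sums were 2300 to 2660 in double mutants, 1890 to 2570 with 1 Mek1 allele and 1820 to 2240 in controls. Skeletal sums were 146 to 174, 147 to 220 and 130 to 181. Of these muscle markers, 0 passed in double mutants against controls. Mesenchymal sums were 5500 to 6190 in double mutants, 4990 to 6370 with 1 Mek1 allele and 4950 to 5260 in controls. Those of 5 measured smooth muscle markers of 6 were 24600 to 26500, 25800 to 27800 and 26700 to 28900. Single genes of the mesenchymal and smooth muscle lists changed in both directions in double mutants against controls, and 0 passed the threshold. The part of these cell types in the values of the hypoxia and glycolysis genes was not tested.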

How the data were processed

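Specimens gave total RNA that was labelled with biotin for Illumina bead arrays, as the labels record. Per the file headers, the scanner table gives a linear intensity for every probe on every array, without normalization between arrays, next to a detection p-value. The matrix deposited by the authors is on a log2 scale. Set against quantile-normalized log2 intensities, its values differed by a median of 0.00386 and ranked alike, with no centring of genes and array medians of 6.91 to 6.93. No software is named in the sources used here.

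Intensities were corrected with normexp from the detection p-values (offset 16), put on the log2 scale and quantile normalized with limma 3.58.1 in R 4.3.3. Of 25697 probes, 11841 had detection p under 0.01 on at least 4 of 12 arrays. Symbols came from the platform annotation (23978 probes with 1 symbol, 0 with several, 1719 unlisted), updated through RefSeq's table for GRCm38.p6. The probe with the highest mean stood for each of 8311 genes. The 3 genotype means were fitted over 12 arrays with lmFit and eBayes (9 residual degrees of freedom), two-sided, the prior being estimated on all passing probes. The number of arrays limits the precision. The array files name no build, so probe positions are not given.

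All 40 genes are accounted for. The other pathway lists are given by counts, naming up to 3 genes past the threshold or, where none passed, up to 2 with the smallest p. The members, lists and tests were chosen with earlier results of these data known. No 2 arrays were duplicates, within-group correlations running from 0.979 to 0.993. Same-numbered specimens did not consistently deviate together (12 pairs, correlations of -0.23 to 0.178, 3 of them over 0.1), so replicate numbers were not taken as pairs. The procedure was tested on simulated data. Alternatives covered background correction, scaling, the authors' log2 values, filters, probe rules, variance model, array weights, a replicate block, Y-linked signal and omission of arrays.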

Additional observations from a re-analysis of the deposited data

Results flagged for a closer look

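Among 90 groups of 4 arrays, for each tested member and genotype, 5 held an array set apart from the others by Dixon's test at its usual 95% level, where chance gives about 1 in 20 groups. Pfkp measured 8.25 on 1 Mek1 allele replicate 3, against 7.83 to 7.89 on the other arrays of that genotype. Egln1 measured 7.24 on double mutant replicate 4, against 6.54 to 6.64. Kdm3a measured 9.7 on 1 Mek1 allele replicate 2, against 9.25 to 9.3. Ddit4 measured 9.13 on control replicate 2, against 8.98 to 8.99 in the other controls, still below every array of the other genotypes. Vldlr measured 10.14 on double mutant replicate 2, against 9.97 to 10 on the other double mutants.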

How the results depend on the processing

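Of 2241 values of members under alternatives, 2191 stayed on their side of the threshold, 64 of them, all uncalled, with the opposite sign, while 32 lost the call, 18 gained it and 0 called values reversed. In double mutants against controls, Ddit4 and Vldlr passed in 24 of 25 alternatives each, whereas Angptl4 and Vldlr in double mutants against 1 Mek1 allele passed in 10 of 25 each. Against controls, 6 members passed with a trended, robust variance model. The enzymes Pfkl, Tpi1 and Ldha were among them (limma adjusted p = 0.0494, 0.0283 and 0.0485). Ldha also passed with the authors' log2 values (limma adjusted p = 0.048). Vegfa passed with the mean of a gene's probes, and P4ha2 without double mutant replicate 3 (limma adjusted p = 0.0459 and 0.0472). Against 1 Mek1 allele, Aldoc passed with an offset of 50 and with the trended model (limma adjusted p = 0.039 and 0.0342). With both brightest arrays left out, an alternative chosen after seeing the data, 0 members passed in any comparison and the genes past the threshold numbered 10, 8 and 5 for double mutants against controls, double mutants against 1 Mek1 allele and 1 Mek1 allele against controls. In that order, the 251, 45 and 53 genes became 426, 80 and 226 without background correction, 432, 68 and 206 with the authors' log2 values, 407, 75 and 224 with the trended, robust model, 591, 29 and 103 with array weights, and 146, 3 and 20 with the replicate number as a block, which left 2 members past the threshold against controls and 0 against 1 Mek1 allele. An offset of 50 gave 80 and 121 genes in the last 2 comparisons. Y-linked signal as a covariate gave 159 genes against controls and 2 in double mutants against 1 Mek1 allele.

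In double mutants against 1 Mek1 allele, upper-quartile scaling gave 23 genes, no filter 7 and the 8 arrays alone 1, and that scaling made 65.2% of the calls positive, against 75.6%. Members past the threshold there numbered 4 with an offset of 50 or the trended model, 1 with upper-quartile scaling or the mean of a gene's probes, and 0 with no filter, the Y-linked covariate or the 8 arrays alone. With 1 Mek1 allele against controls, genes numbered 105 when detected on all 12 arrays, 89 with every probe on its own and 23 with the 8 arrays alone, and upper-quartile scaling made 59.2% of the calls positive, against 47.2%. The median of enzymes in double mutants against controls was 0.124 without background correction, 0.174 with an offset of 50, 0.12 with the authors' values and 0.158 with every probe on its own. Omitting 1 array gave 109 to 287, 2 to 43 and 15 to 60 genes in the 3 comparisons, 2 to 3, 0 to 2 and 0 members, and enzyme medians of 0.179 to 0.366 against controls. The causes were not tested. Dim probes (Hk1, Aldoc, Pgk1) limit what their changes show.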
